A study of Mus musculus with 8 samples.

Results

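The genes that anchor skin cells to their basement membranes were examined as a group of 37: 10 laminin chains, 2 nidogens, the heparan sulfate proteoglycans perlecan (*Hspg2*) and agrin, the plakins *Dst* and *Plec*, 14 integrin subunits, the tetraspanin *Cd151*, 2 kindlins, dystroglycan and 3 genes of the Fraser complex. They were picked by gene symbol, each represented by its brightest probe set over all arrays. Of the 37 genes 36 had such a probe set, out of 18193 genes in all, and 30 lay above the lowest 30% of mean level, the part of the table in which diets were tested. *Itga1*, *Itga2*, *Itgb6*, *Lama1*, *Fras1* and *Frem1* lay below that level, and *Fermt1* was not analysed here. Expression was measured on arrays in dorsal skin of female mice of the hairless strain Hos:HR-1. The study held 8 mice per diet, and the labels call the 4 arrays of each diet biological replicates without saying how their mice were picked or which shared a cage. The control group (4 arrays) ate the purified diet AIN-93G for 12 weeks, and the collagen group (4 arrays) ate AIN-93G to which fish-scale collagen hydrolysate had been added at 2 g per 100 g. Both groups were 9 weeks old at the start and 21 weeks old when skin was taken. The comparison addresses which skin genes differ in expression after the collagen diet.

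Basement membranes are thin protein sheets on which epithelia rest and which wrap muscle fibres, nerves, fat cells and vessels. Their scaffold is made of laminins, trimers of an alpha, a beta and a gamma chain, which nidogens and perlecan tie to a collagen network. Cells hold on to laminin through integrins and dystroglycan, and basal keratinocytes do so at hemidesmosomes, where the integrin of *Itga6* and *Itgb4* links an epithelial laminin with the *Lama3* and *Lamb3* chains to plakins and the keratin filaments inside. Loss of these hemidesmosomal parts blisters the skin.

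The promoters of 4 genes are shown, because *Nid1*, *Lamb1* and *Lama2* were high in the same arrays and *Lamb3*, an epidermal gene, was not. Each window runs from 250 bases before to 50 bases after a RefSeq transcript start in build GRCm38.p6, printed along the gene's strand, and capitals mark GGGCGG (a GC box) and CCAAT on either strand.
*Nid1*, chr13:13437352-13437651, plus strand: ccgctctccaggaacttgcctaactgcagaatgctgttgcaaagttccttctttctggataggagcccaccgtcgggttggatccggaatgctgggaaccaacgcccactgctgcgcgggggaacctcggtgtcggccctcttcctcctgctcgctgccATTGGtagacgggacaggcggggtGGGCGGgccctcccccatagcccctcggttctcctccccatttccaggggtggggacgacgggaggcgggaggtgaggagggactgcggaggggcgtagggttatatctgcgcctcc
*Lamb1*, chr12:31265043-31265342, plus strand: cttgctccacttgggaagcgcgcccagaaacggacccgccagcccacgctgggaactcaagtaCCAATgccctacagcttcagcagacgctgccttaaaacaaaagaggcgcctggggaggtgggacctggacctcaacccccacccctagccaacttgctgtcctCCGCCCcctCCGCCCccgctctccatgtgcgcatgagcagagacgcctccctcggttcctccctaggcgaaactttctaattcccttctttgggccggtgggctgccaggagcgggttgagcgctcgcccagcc
*Lama2*, chr10:27616893-27617192, minus strand: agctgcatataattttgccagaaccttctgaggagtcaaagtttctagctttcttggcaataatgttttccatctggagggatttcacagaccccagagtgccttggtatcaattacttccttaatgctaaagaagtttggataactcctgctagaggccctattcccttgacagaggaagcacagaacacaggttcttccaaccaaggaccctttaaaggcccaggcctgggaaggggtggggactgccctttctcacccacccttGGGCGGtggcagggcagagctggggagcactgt
*Lamb3*, chr1:193301744-193302043, plus strand: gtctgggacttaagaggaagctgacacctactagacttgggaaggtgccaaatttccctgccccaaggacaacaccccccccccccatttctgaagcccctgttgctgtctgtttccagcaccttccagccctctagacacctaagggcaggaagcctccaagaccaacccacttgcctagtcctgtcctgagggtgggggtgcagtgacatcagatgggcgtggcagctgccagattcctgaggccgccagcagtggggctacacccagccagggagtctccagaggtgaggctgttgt
The *Nid1* window held 1 GC box, 1 CCAAT and 20 CG dinucleotides. *Lamb1* held 2 GC boxes, 1 CCAAT and 18 CG dinucleotides. *Lama2*, which was high in the same arrays, held 1 GC box, no CCAAT and 1 CG dinucleotide. In the *Lamb3* window, the first of 2 listed for the gene, neither motif occurred and there were 2 CG dinucleotides. Windows of 26 of the 37 genes were examined, without *Lama3*. Among the first windows of these 26 genes, 17 (65.4%) held a GC box and 5 (19.2%) held CCAAT. Of all 32851 windows of 300 bases 35.7% held a GC box and 37.4% CCAAT. That background was not limited to the first window of each gene, so the shares are not like for like. The GC box was in all 3 windows of the genes that were high together, while CCAAT was in 2 of them, and these 4 windows are too few for a comparison.

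The deposited log2 values of these genes hardly differed between arrays: the SD over the 8 arrays lay between 1.54e-06 and 0.000511 for the 30 tested genes, with a median of 4.53e-05 against 1.99e-05 over all 12735 tested genes. A difference on this scale is therefore not a fold change of RNA. Below, the value of a gene in an array is its deviation from the gene's mean over the 8 arrays, divided by the gene's pooled SD within the diets, and called SD for short. A diet difference is collagen minus control in the same unit. Mean levels of the 30 genes ran from 6.81 for *Itga5* to 10.99 for *Plec* on the deposited log2 scale, with 7.75 to 10.26 for the epidermal, 7.81 to 10.74 for the muscle and nerve and 6.81 to 8.90 for the vascular genes. Classes and genes are not ranked by level, because probe sets of different genes bind with different strength. Epidermis and muscle both gave signal, with the basal keratins *Krt5* at 13.06 and *Krt14* at 13.89 on a scale that ends at 14.27, and skeletal actin *Acta1* at 12.73. These are the brightest markers of their lists. The lowest were *Trp63* at 10.21 and *Casq1* at 8.56, and levels do not measure the share of a tissue. Skeletal muscle markers (14 of 14 tested) were low in 2 arrays, with a mean deviation of -1.37 SD in control replicate 4 and -1.38 SD in collagen replicate 1 against 0.20 to 0.84 SD in the others. Mouse dorsal skin carries a sheet of striated muscle beneath the dermis. The samples were whole skin, in which fewer cells of a type and less RNA per cell cannot be told apart.

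No gene of basement membrane adhesion passed the test between the diets. Of the 30 tested genes 0 had an adjusted p below 0.05 in limma, where 0% of all 12735 genes had, and 0 had an unadjusted p below 0.05, where 5.36% of all genes had (4.15% lower and 1.21% higher on the collagen diet). The diets overlapped in all 30 genes, while they did not overlap in 3.31% of all genes. On the collagen diet 16 of the 30 were lower and 14 higher, with a median difference of -0.05 SD, against 54.5% lower and a median of -0.08 SD over all genes. After quantile normalization 21 were lower and 9 higher, and after centring each array on its median 25 were lower and 5 higher, with 65.7% and 86.5% of all genes lower in these settings. Without control replicate 4 and collagen replicate 1 together, 11 were lower and 19 higher. The smallest adjusted p among the 30 genes was 0.969, for *Itgb8*. The differences ran from -1.47 to 1.43 SD, and the 95% interval of every gene included 0.

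**Figure D1:**
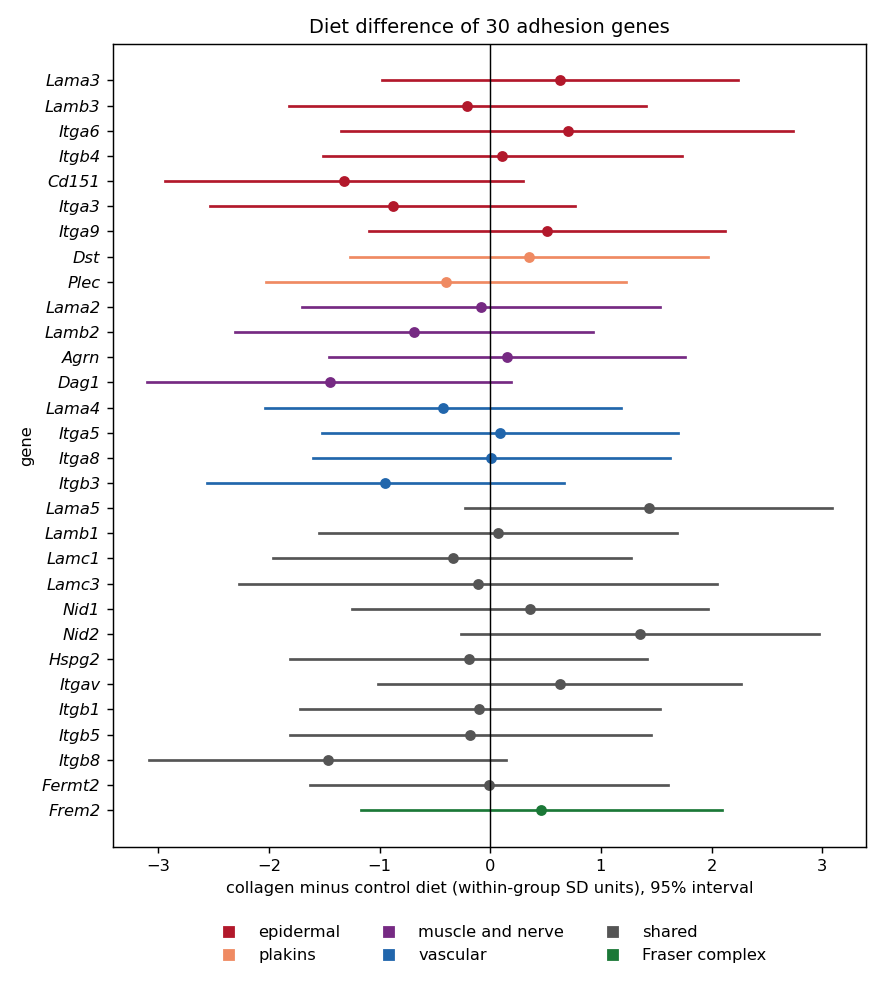
Diet difference of the 30 tested genes, one row per gene, with the difference (point) and its 95% interval (line) on the horizontal axis in within-group SD units and colours for the class of each gene. Points lie between -1.47 SD (*Itgb8*) and 1.43 SD (*Lama5*), and each interval crosses 0.

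The epidermal anchor was examined first. In this class 4 of 7 tested genes were higher and 3 lower on the collagen diet, with a median of 0.11 SD. *Lama3* (probe set 1427512_a_at, level 8.65), the alpha chain of the epidermal laminin, stood at -0.82, -1.71, -0.20 and 1.47 SD in control replicates 1 to 4. On the collagen diet it stood at 0.63, 0.06, -0.19 and 0.76 SD. The highest and the lowest array were both control arrays, the collagen arrays lay between them, and the difference was 0.63 SD (95% interval -0.98 to 2.24 SD, adjusted p = 0.999 in limma), turning to -0.29 SD after quantile normalization. Without control replicate 4 it was 2.06 SD, with an unadjusted p below 0.05 that did not pass after adjustment. A second probe set gave -0.09 SD. *Lamb3* (probe set 1417812_a_at, level 8.65), the beta chain of the same laminin, stood at -0.52, 0.04, -0.85 and 1.75 SD on the control diet. Its collagen arrays stood at 1.10, -0.37, -0.70 and -0.44 SD. Control replicate 4 and collagen replicate 1 were highest for *Lamb3*, the groups overlapped, and the difference was -0.21 SD (95% interval -1.82 to 1.41 SD, adjusted p = 0.999 in limma). These are the 2 arrays low in skeletal muscle markers, and the part of tissue makeup in the values was not tested.

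The hemidesmosomal receptor for this laminin has 2 subunits. *Itga6* (probe set 1422445_at, level 10.17), the alpha subunit, stood at -0.28, -0.47, -0.09 and -0.56 SD in the control arrays, a narrow band. Its collagen arrays spread on both sides of that band, at 0.19, 1.98, -1.41 and 0.64 SD, with 3 above and 1 below all control arrays. Its difference was 0.70 SD (95% interval -1.35 to 2.74 SD, adjusted p = 0.999 in limma), and a second probe set of the gene gave 1.15 SD. After median centring the difference was -0.12 SD, and after quantile normalization it was below 0.005 SD in size. *Itgb4* (probe set 1427387_a_at, level 8.85), the beta subunit with the long tail that binds plectin, stood at -0.82, 0.10, -0.62 and 1.12 SD on the control diet. On the collagen diet *Itgb4* stood at 0.50, 0.61, 0.71 and -1.60 SD. Collagen replicate 4 was lowest of all arrays and control replicate 4 highest, and the difference of 0.11 SD (95% interval -1.51 to 1.73 SD, adjusted p = 0.999 in limma) became -0.60 SD under quantile normalization and -0.11 SD when arrays were centred on their medians.

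*Cd151* (probe set 1456085_x_at, level 10.26), a tetraspanin that sits beside laminin-binding integrins, was the epidermal gene with the smallest p. It stood at 1.70, -0.65, 1.38 and 0.21 SD in control replicates 1 to 4. The collagen arrays stood at -1.52, -0.19, -1.31 and 0.38 SD. Control replicates 1 and 3 were high and collagen replicates 1 and 3 low, and the groups overlapped through the other 4 arrays. The difference was -1.32 SD (95% interval -2.94 to 0.30 SD, adjusted p = 0.999 in limma), which did not pass. Without control replicate 2 it was -2.04 SD, with an unadjusted p below 0.05 that did not pass after adjustment. Of its 5 other probe sets 4 were also lower, at -1.59, -1.72, -1.87 and -4.07 SD, and 1 was higher at 0.48 SD. The unadjusted p in limma was 0.0537, 0.0496, 0.653 and 0.0138 for the lower ones in this order, and 0.505 for the higher one. The chosen probe set is of a type that can also bind other transcripts, as its name ending in x_at tells. With the mean of all its probe sets *Cd151* had the smallest p of the tested adhesion genes, below 0.05 before adjustment. No gene passed in that setting, where the lowest adjusted p of the group was 0.815 in limma.

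The other epidermal genes showed no common direction. *Itga3*, which pairs with *Itgb1* to bind the epidermal laminin outside hemidesmosomes, differed by -0.88 SD, with control replicate 4 highest at 2.09 SD. *Itga9*, a receptor for tenascin and other matrix proteins, differed by 0.51 SD, with collagen replicate 3 highest at 1.79 SD. The plakins, which tie the hemidesmosome to keratin and also occur in muscle and nerve, differed by 0.35 SD for *Dst* and -0.40 SD for *Plec*. *Dst* was lowest in control replicate 1 at -1.90 SD and *Plec* lowest in collagen replicate 1 at -1.44 SD. All 3 other probe sets of *Dst* were higher on the collagen diet like the chosen one (0.23 to 0.60 SD), whereas both others of *Plec* went the other way (0.20 and 0.31 SD). Beside these genes, basal keratinocyte markers (4 of 4 tested) ran from -0.29 to 0.76 SD in the control arrays and from -0.70 to 0.30 SD in the collagen arrays.

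Genes of muscle and nerve basement membrane were lower on the collagen diet in 3 of 4, with a median of -0.39 SD. *Dag1* (probe set 1426778_at, level 10.74), dystroglycan, is the receptor through which muscle fibres hold laminin. It stood at 0.67, 1.68, 1.22 and -0.67 SD in the control arrays. The collagen arrays stood at -1.0, -1.42, 0.72 and -1.22 SD. Collagen replicates 1, 2 and 4 lay below every control array, but collagen replicate 3 lay among the control arrays, and the difference was -1.45 SD (95% interval -3.10 to 0.19 SD, adjusted p = 0.988 in limma). Its 3 other probe sets gave -1.34, -1.39 and -1.78 SD. After quantile normalization the difference was below 0.005 SD in size. *Dag1* had an unadjusted p below 0.05 without control replicate 4 (-2.33 SD), without collagen replicate 3 (-2.42 SD) and with the mean of all probe sets, and passed after adjustment in none of these.

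*Lama2* (probe set 1426285_at, level 8.80), the alpha chain of the muscle and nerve laminin, stood at -0.84, -0.14, 1.61 and -0.46 SD on the control diet. Its collagen arrays stood at -0.51, -0.55, 1.33 and -0.44 SD. Control replicate 3 and collagen replicate 3 stood apart as high, the other 6 arrays lay between -0.84 and -0.14 SD, and the diet difference was -0.08 SD (95% interval -1.70 to 1.53 SD, adjusted p = 0.999 in limma). *Lama2* was not low in the 2 arrays that were low in skeletal muscle markers, where it stood at -0.46 and -0.51 SD within the band of the other arrays. *Lamb2*, a beta chain of the neuromuscular junction, differed by -0.69 SD, with collagen replicate 2 at -2.02 SD. *Agrn*, agrin, which gathers acetylcholine receptors at that junction, differed by 0.15 SD and had the largest SD over the arrays of the 30 genes (0.000511).

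The vascular class was split, with 2 of 4 tested genes higher and a median of -0.21 SD. *Lama4* (probe set 1424807_at, level 8.90), the alpha chain of endothelial laminin, stood at -0.78, 0.24, 1.09 and 0.30 SD on the control diet. On the collagen diet it stood at -0.23, -1.50, 1.37 and -0.49 SD. Collagen replicate 3 was highest and collagen replicate 2 lowest, with the control arrays between them, and the difference was -0.43 SD (95% interval -2.04 to 1.18 SD, adjusted p = 0.999 in limma). *Itga5*, the fibronectin receptor subunit, differed by 0.09 SD and was highest in control replicate 4 at 1.96 SD, and *Itga8*, an integrin of smooth muscle and the hair muscle attachment, differed by 0.01 SD and was highest in collagen replicate 3 at 1.64 SD. Without control replicate 4 the difference of *Itga5* was 2.12 SD, with an unadjusted p below 0.05 in limma that did not pass after adjustment. *Itgb3*, the vitronectin receptor subunit, differed by -0.95 SD and was lowest in collagen replicate 1 at -2.09 SD. Endothelial markers (7 of 8 tested) ran from -0.99 to 0.44 SD in the control and from -0.54 to 0.61 SD in the collagen arrays. Smooth muscle and pericyte markers (6 of 6 tested) ran from -1.29 to 0.32 SD and from -0.28 to 1.11 SD, and their part in these values was not tested.

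The shared class held laminin chains, nidogens, perlecan, integrin subunits and *Fermt2* that were not assigned to a single tissue. Of its 12 tested genes 5 were higher on the collagen diet and 7 lower, with a median of -0.05 SD. *Lama5* (probe set 1427009_at, level 7.82), the alpha chain of vessel, follicle and epidermal laminin, stood at -1.91, -0.09, -0.86 and 0.00 SD in control replicates 1 to 4. The collagen arrays stood at 0.95, 0.85, 1.86 and -0.79 SD. Collagen replicates 1, 2 and 3 lay above every control array and collagen replicate 4 did not, and the difference was 1.43 SD (95% interval -0.23 to 3.09 SD, adjusted p = 0.988 in limma). It fell to -0.02 SD with quantile normalization and -0.05 SD with median centring of the arrays, and a second probe set gave 0.66 SD. Without collagen replicate 4 it was 2.52 SD, with an unadjusted p below 0.05 and no pass after adjustment. *Nid2* (probe set 1423516_a_at, level 7.17), nidogen 2, stood at -1.42, -1.48, 1.09 and -0.89 SD on the control diet. Its collagen arrays stood at -0.08, 0.31, 1.63 and 0.85 SD. Control replicates 1, 2 and 4 were the lowest 3 arrays, control replicate 3 was high, and the difference was 1.35 SD (95% interval -0.26 to 2.97 SD, adjusted p = 0.999 in limma). Without control replicate 3 it was 3.18 SD, with an unadjusted p below 0.05 and no pass after adjustment, while quantile normalization gave 0.27 SD and median centring 0.49 SD. *Nid1*, nidogen 1, differed by 0.36 SD, and a second probe set went the other way at -1.33 SD.

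*Itgb8* (probe set 1436223_at, level 9.42), a partner of the alpha v subunit that activates latent TGF-beta, had the lowest difference of the group. It stood at 0.88, -0.14, 1.10 and 1.11 SD on the control diet. The collagen arrays stood at 0.47, -1.30, -2.27 and 0.16 SD. Collagen replicates 2 and 3 lay below every control array, collagen replicates 1 and 4 among them, and the difference was -1.47 SD (95% interval -3.08 to 0.14 SD, adjusted p = 0.969 in limma). After quantile normalization it was -0.38 SD and after median centring -0.90 SD. *Itgb1*, the beta subunit shared by most laminin and collagen receptors, differed by -0.10 SD, and *Fermt2*, the kindlin that activates it, by -0.01 SD. Collagen replicate 1 was lowest for both, at -2.07 SD for *Itgb1* and -1.96 SD for *Fermt2*. Leaving out control replicate 4 and collagen replicate 1 gave 1.59 and 1.31 SD for them, and further probe sets of *Itgb1* gave 0.60 and 1.98 SD. The alpha v subunit *Itgav* differed by 0.63 SD and its partner *Itgb5*, which binds vitronectin, by -0.18 SD. Among the chains and linkers, *Lamb1* and *Lamc1*, the commonest beta and gamma chains, differed by 0.07 and -0.34 SD, *Lamc3*, a rarer gamma chain, by -0.11 SD and *Hspg2* by -0.19 SD. *Frem2*, the tested gene of the Fraser complex that holds embryonic epidermis to dermis, differed by 0.46 SD and stood at 2.07 SD in collagen replicate 1. The 6 genes below the level limit had differences between -0.60 SD (*Itgb6*) and 1.40 SD (*Frem1*).

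Single arrays of either diet were high or low for many of these genes. Collagen replicate 3 was the highest array for 9 of the 30 genes and control replicate 4 for 8, while 10.2% and 17.7% of all tested genes were highest in these arrays. Of the 7 epidermal genes 4 (*Lama3*, *Lamb3*, *Itgb4* and *Itga3*) were highest in control replicate 4. The epidermal class averaged 0.77 SD in that array and between -0.34 and 0.19 SD in the others. Basal keratinocyte markers did not follow it: they averaged 0.34 SD in control replicate 4. They were highest in control replicate 2 at 0.76 SD, where the epidermal class was lowest at -0.34 SD. In control replicate 4 the vascular class averaged 0.56 SD and the muscle and nerve class 0.04 SD. The muscle and nerve class averaged 1.09 SD in control replicate 3 and 0.90 SD in collagen replicate 3, and the vascular class 0.93 SD in collagen replicate 3. Fibroblast markers (6 of 6 tested), such as *Col1a1*, averaged 0.84 SD in control replicate 3 and 1.46 SD in collagen replicate 3, and between -0.79 and 0.05 SD in the other arrays. They ran from -0.79 to 0.84 SD on the control and from -0.77 to 1.46 SD on the collagen diet, and their part in the pattern was not tested. Markers of fat cells (3 of 5 tested) ran from -1.07 to 1.01 SD on the control and -0.74 to 0.83 SD on the collagen diet, those of Schwann cells (3 of 5) from -1.37 to 0.56 SD and -0.20 to 0.56 SD, and those of leukocytes (6 of 6) from -0.45 to 0.30 SD and -0.22 to 0.29 SD. No test was made of a class against another.

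**Figure D2:**
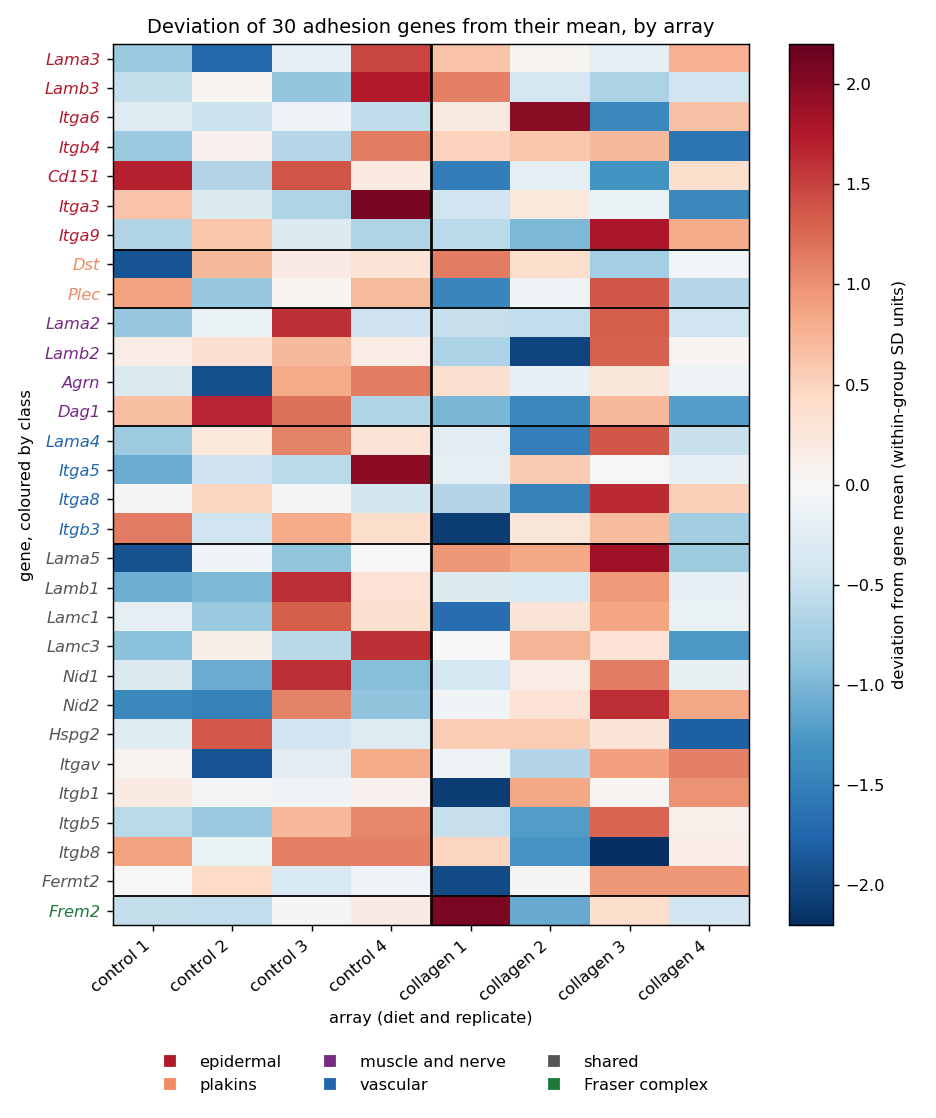
Deviation of each of the 30 tested genes (rows, label colour for class) from its mean in each of the 8 arrays (columns, control left and collagen right of the line), in within-group SD units from blue (low) to red (high). *Lama3*, *Lamb3*, *Itgb4* and *Itga3* are red in control replicate 4, and *Lama2*, *Lamb1*, *Lamc1*, *Nid1* and *Nid2* are red in control replicate 3 and collagen replicate 3.

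**Figure D3:**
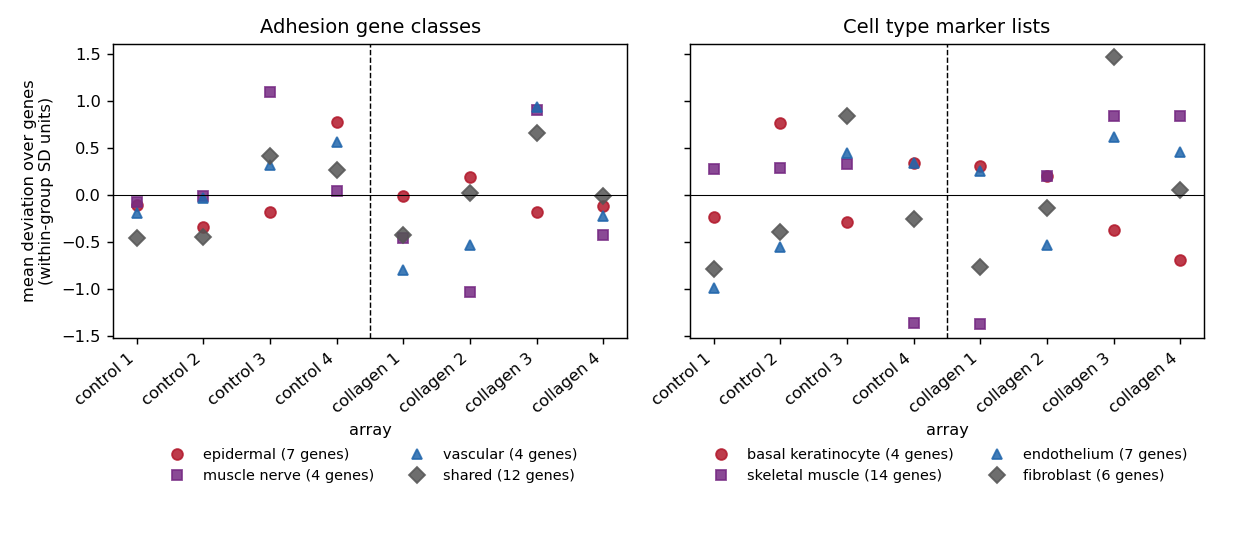
Mean deviation over the genes of a class (left) and over cell type markers (right) in each array, in within-group SD units, with a dashed line between the diets. Epidermal genes are highest in control replicate 4 at 0.77 SD, skeletal muscle markers are lowest in control replicate 4 and collagen replicate 1, and fibroblast markers are highest in control replicate 3 and collagen replicate 3.

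Genes whose proteins bind each other, or are close relatives like the nidogens, were then compared over the 8 arrays in 20 pairs. In 2 pairs with *Lama2* the arrays fell into separate clusters and no pooled correlation was taken. Of the other 18 pairs 12 had a positive and 6 a negative Pearson r, 4 had an unadjusted exact permutation p below 0.05, and 0 passed after adjustment over the 18. The nidogens *Nid1* and *Nid2* had the highest r, 0.83 (exact two-sided permutation p = 0.0112, adjusted p = 0.201), with Spearman's rho of 0.88 (exact permutation p = 0.00724, adjusted p = 0.130). An r at least as high was found in 0.969% of all pairs of tested genes. Without control replicate 3 and collagen replicate 3, the arrays farthest from the median of *Nid1*, r was 0.70, and with the diet means removed it was 0.91. After quantile normalization it was 0.56 and after median centring 0.65, and the nidogens were not among the pairs that passed there.

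The other 3 pairs joined the laminin chains and nidogen 1. *Lamb1* and *Lamc1*, present together in most laminins, gave r = 0.74 (exact permutation p = 0.0365, adjusted p = 0.216) and rho = 0.79 (exact permutation p = 0.0279, adjusted p = 0.165), and r = 0.31 without control replicate 3 and collagen replicate 3, so that the relation rests on these arrays. *Lamc1* and *Nid1*, which binds the gamma 1 chain, gave r = 0.71 (exact permutation p = 0.0479, adjusted p = 0.216) and rho = 0.71 (exact permutation p = 0.0576, adjusted p = 0.207), and r = 0.75 without control replicate 3 and collagen replicate 1. *Lama4* and *Lamb1*, chains of the vascular laminin, gave r = 0.71 (exact permutation p = 0.0477, adjusted p = 0.216) and rho = 0.76 (exact permutation p = 0.0368, adjusted p = 0.165), and r = 0.79 without collagen replicates 2 and 3. In all pairs of tested genes an r as high as these occurred in 2.67%, 3.40% and 3.38%. *Lamb1* stood at -1.08, -0.99, 1.63 and 0.31 SD on the control and -0.30, -0.33, 0.94 and -0.18 SD on the collagen diet. *Lamc1* stood at -0.19, -0.81, 1.33 and 0.36 SD on the control and -1.68, 0.28, 0.86 and -0.14 SD on the collagen diet. *Nid1* stood at -0.32, -1.10, 1.62 and -0.93 SD on the control and -0.39, 0.17, 1.12 and -0.17 SD on the collagen diet. All 3 were highest in control replicate 3 and next highest in collagen replicate 3, the arrays with the most fibroblast marker signal.

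Partners of the hemidesmosome had lower r than these pairs in the values as deposited, an order that changed with the scaling. *Lama3* and *Lamb3* gave r = 0.55 (exact permutation p = 0.162, adjusted p = 0.365) and rho = 0.48 (exact permutation p = 0.243, adjusted p = 0.535), an r reached by 9.75% of all gene pairs. Without control replicates 2 and 4 it was again 0.55, but without the 2 arrays low in muscle markers it was -0.53, so that the positive sign rests on those arrays. After quantile normalization it was 0.87 and after median centring 0.93, and the pair passed in both settings. In the same order of settings *Lamc1* and *Nid1* gave 0.39 and 0.69. *Lamb1* and *Lamc1* gave 0.99 and 0.73, and *Lama4* and *Lamb1* gave 0.99 and 0.81. Thus these last pairs stayed above *Lama3* and *Lamb3* after quantile normalization and fell below it after median centring. *Itga6* and *Itgb4* gave r = -0.17 (exact permutation p = 0.690, adjusted p = 0.887) and rho = -0.45 (exact permutation p = 0.267, adjusted p = 0.535), and r = -0.65 without collagen replicates 2 and 3. The remaining 12 pairs had r between -0.58 (*Itgb1* with *Itga1*, which lay below the level limit) and 0.67 (*Itgav* with *Itgb5*). *Itga1* and *Itgb1* ran in opposite directions by rank, with rho = -0.81 (exact permutation p = 0.0218, adjusted p = 0.165). These values depend on the scaling: after median centring, which adds 1 number per array to all genes, 12 pairs passed, and after quantile normalization 4 did. Pairs with a gene below the level limit were left out in both settings, so fewer than 18 pairs were tested there. The share of all gene pairs with so high an r was not counted in these settings.

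**Figure D4:**
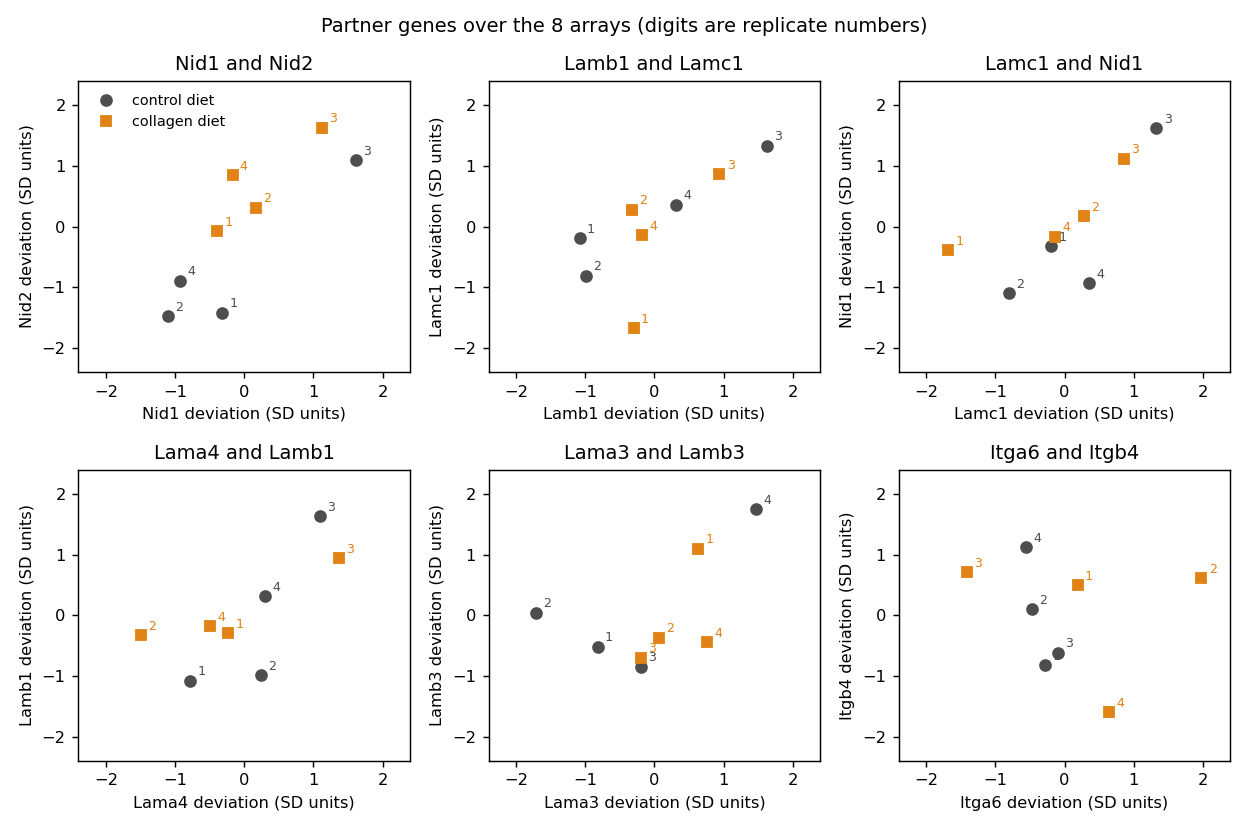
Values of 6 partner pairs over the 8 arrays, each axis the deviation of a gene from its mean in within-group SD units, circles for the control and squares for the collagen diet, digits for replicates. The nidogens lie along a rising line (r = 0.83), with control replicate 3 and collagen replicate 3 at the top, whereas *Itga6* and *Itgb4* show no common direction (r = -0.17).

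Different probe sets of the same gene gave a measure of how far such small differences repeat. Among probe sets above the lowest 30% of all probe sets by mean level there were 35 further ones for 19 of the genes. Of these 20 (57.1%) had the same direction of diet difference as the chosen one, against 58.8% over all genes. Over the 8 arrays the median r between the chosen and a further probe set was 0.61, with a range of -0.45 to 0.93, against a median of 0.34 over all genes. The array pattern of *Lamb1* (0.68 and 0.93), *Dag1* (0.85 to 0.91) and *Itgb5* (0.83 to 0.89) was repeated closely by their other probe sets. That of *Itgb3* (-0.45) and *Itgav* (-0.12) was not. Probe sets of a gene share the RNA sample and can share probes, so these values are descriptions.

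Other genes of the pathway were counted from 4 lists, and 0 of them passed after adjustment over all genes in limma. Of 19 tested further basement membrane genes 8 were higher and 11 lower (median -0.02 SD), led by *Smoc2*, a calcium-binding matrix protein, at -1.18 SD and *Col17a1*, the hemidesmosomal collagen, at 1.03 SD. Of 10 other integrin genes 6 were higher and 4 lower (median 0.19 SD), led by the leukocyte subunits *Itgb2* at 2.00 SD and *Itgax* at 0.83 SD. Of 20 focal adhesion genes 3 were higher and 17 lower (median -0.59 SD against -0.08 SD over all genes, of which 54.5% were lower), led by *Lims1*, an adaptor of integrin-linked kinase, at 2.38 SD and *Tns3*, a tensin, at -1.98 SD. This list averaged 1.02 SD in control replicate 4 and between -0.43 and 0.51 SD in the other control arrays. Its collagen arrays ran from -0.52 to 0.19 SD. Of 12 genes of the dystroglycan complex and its sugar-adding enzymes 3 were higher and 9 lower (median -0.08 SD), led by *Pomgnt1* at -1.82 SD and *Pomt1* at -1.58 SD, both enzymes that build the laminin-binding sugar of dystroglycan. In *Pomgnt1* all 4 collagen arrays lay below all 4 control arrays, as in no other gene of these lists, while the diets did not overlap in 3.31% of all genes. At an unadjusted p below 0.05 stood 1 higher integrin gene, 1 higher and 1 lower focal adhesion gene and 1 lower gene of the dystroglycan list, where 1.21% of all genes were higher and 4.15% lower at that p.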

How the data were processed

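The 37 genes, their classes, the pairs and the lists were chosen with earlier results of these data known. The authors deposited log2 values, 1 column for each of the 8 arrays, as judged from their range of 5.34 to 14.27. Per the submitters' processing notes R 2.7.2 was used, and the sources used here do not give the summarization, the normalization or a genome build. Background signals were not analysed here, and the number of arrays limits the precision. Per the labels' protocols, total RNA of powdered frozen skin was amplified from the 3' end of transcripts and labelled with biotin. Replicates are biological per the labels.

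Probe sets with 1 gene symbol were used, the highest mean per gene (18193 genes), and the lowest 30% by level were left out (12735 left). The diet test was limma's moderated test (version 3.58.1, R 4.3.3), two-sided, with a prior that follows intensity and Benjamini-Hochberg adjustment over all 12735 genes at a threshold of 0.05. The fit was tested on simulated data. It called 9 of 67 changes of 3 SD (13.4%), 68 of 84 of 6 SD and 49 of 49 of 10 SD, with 5 false calls. Changes of 3 SD were thus mostly missed. Partner pairs were compared by exact permutation over all pairings of arrays (Python 3.11.15), without pairs in which a gap above 50% of a gene's range parted 2 or more arrays on each side. Values in every array are given for *Lama3*, *Lamb3*, *Itga6*, *Itgb4*, *Lama2*, *Dag1*, *Lama4*, *Lama5*, the 3 genes of smallest p in each direction, and, chosen after their values were seen, the laminin and nidogen genes of the pairs. The lists of other pathway genes name their 2 genes of smallest p. Markers of cell types were named by level or as examples, not by p. The comparison with further probe sets was also added after the data were seen. Alternatives were the level limit (none or 50%), scaling (quantile normalization or median centring), a prior without trend, the replicate block, the mean of all probe sets, removal of diet means, and leaving out arrays.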

Additional observations from a re-analysis of the deposited data

Results flagged for a closer look

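Each of the 30 genes has a group of 4 arrays in each of the 2 diets. In 5 of all these groups the array at one end lay far from the other 3 of its diet. Chance gives about 1 such group in 20, so some arise by chance among so many. The share over all genes was not counted, and the 5 groups are only described. *Hspg2* had such an array in both diets, control replicate 2 high at 1.35 SD and collagen replicate 4 low at -1.79 SD. *Itgb4* was low in collagen replicate 4 at -1.60 SD. Collagen replicate 3 was high for *Lama2* at 1.33 SD and for *Lamb1* at 0.94 SD, while the other 3 collagen arrays lay at or below -0.44 and -0.18 SD.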

How the results depend on the processing

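In each alternative 0 of the adhesion genes passed the diet test in limma, with a lowest adjusted p among them between 0.746 and 1, and at most 3 (without control replicate 4) had an unadjusted p below 0.05. The share of all genes below that unadjusted p was not counted in the alternatives, so these counts have no background beside them. Over all genes 1 passed with the 50% limit and 1 without control replicate 1. The labels do not say whether equal replicate numbers pair the arrays. Over genes, deviations of same-numbered arrays correlated at 0.00, -0.02, 0.18 and -0.07. Those of differently numbered arrays correlated between -0.31 and 0.17. These values cannot show whether arrays shared a cage or a batch. The replicate block also gave 0 calls, with a lowest adjusted p of 0.877 in limma, for *Nid2* at 3.33 SD. The count of lower genes, 16, was 25 after median centring and ran from 13 to 21 when 1 array was left out. The medians of the arrays had an SD of 0.000146, while the SDs of the adhesion genes ran from 1.54e-06 to 0.000511 with a median of 4.53e-05. Quantile normalization turned these differences (SD units): *Lama3* -0.29, *Itgb4* -0.60, *Itga3* 0.36, *Dst* -0.71, *Agrn* -0.11, *Lama5* -0.02, *Lamb1* -0.17, *Lamc3* 0.14, *Nid1* -0.01, *Itgav* -0.47, *Frem2* -0.18. Median centring turned *Itga6* -0.12, *Itgb4* -0.11, *Dst* -0.02, *Itga5* -0.05, *Itga8* -0.17, *Lama5* -0.05, *Lamb1* -0.12, *Itgav* -0.06, *Frem2* -0.12. The mean of all probe sets turned *Plec* 0.22, *Nid1* -0.01, *Itgb1* 1.46, *Itgb5* 0.04. Leaving out both arrays low in muscle markers turned *Plec* 0.19, *Lamc1* 0.26, *Lamc3* 0.46, *Itgb1* 1.59, *Itgb5* 0.26, *Fermt2* 1.31, *Frem2* -0.02. Leaving out 1 array turned the sign of genes with these ranges: *Lamb3* -0.67 to 0.49, *Itgb4* -0.14 to 0.97, *Dst* -0.36 to 0.66, *Plec* -1.24 to 0.02, *Lama2* -0.64 to 0.59, *Agrn* -0.90 to 0.61, *Itga5* -0.28 to 2.12, *Itga8* -0.76 to 0.66, *Lamb1* -0.30 to 0.91, *Lamc1* -0.71 to 0.21, *Lamc3* -0.44 to 0.54, *Hspg2* -0.40 to 0.57, *Itgb1* -0.46 to 1.71, *Itgb5* -0.76 to 0.22, *Fermt2* -0.34 to 1.52, *Frem2* -0.28 to 1.07. Partner pairs passing numbered 0 as deposited, with diet means removed, with the mean of all probe sets and with 1 array left out, against 4 after quantile normalization, 12 after median centring and 1 (*Lamc1* and *Nid1*) without both arrays. Fewer than 18 pairs were tested under either scaling and with the mean of all probe sets, where pairs with a gene below the level limit were left out. The r of *Lama3* and *Lamb3* was -0.53 without both arrays, 0.87 after quantile normalization and 0.93 after median centring, and that of *Itga6* and *Itgb4* was 0.82 after quantile normalization, 0.98 after median centring and between -0.66 and 0.01 with 1 array left out. Why scaling moved other values was not tested.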
